A study of Mus musculus with 8 samples.

Results

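The 39 genes described here encode the machinery that carries messenger RNA out of the nucleus, and the data are the R-loop peaks that fell in them. A peak was assigned to a gene when its summit lay within the gene's GRCm38 bounds extended by 1 kb on either side. All 39 genes were found among 21887 protein-coding genes of the RefSeq table, and 21 of the 40207 peaks of the series fell in them, 12 in young and 9 in aged cells. Each of these 21 peaks fell in 1 export gene only. The series asked whether R-loops strengthen in haematopoietic stem cells with age, and its title links them to a decline of RNA export. Freshly sorted mouse bone marrow cells (Lineage-, cKit+, Sca1+ and CD34-), labelled Young or Aged with no age in months, strain or sex given in the sources used here, went untreated into strand-specific DNA:RNA immunoprecipitation sequencing. Each age had 2 libraries made with the S9.6 antibody, which binds DNA:RNA hybrids, and 2 input libraries without antibody. The deposited peak lists, 1 for each age and strand, give no value per library, so no difference between ages was tested. How the libraries and inputs entered each list is not given in the sources used here.

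An R-loop forms when a nascent transcript pairs again with its DNA template and leaves the other DNA strand single. Export factors are loaded on the transcript while it is made. The THO complex and its partners form TREX, which hands the packaged RNA to the receptor NXF1-NXT1 for passage through the nuclear pore, and loss of THO is a classical cause of R-loop accumulation in yeast and in human cells. The peaks below show where hybrids were captured in the genes of this machinery. They measure neither the expression of these genes nor export itself.

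In either age taken alone, export genes carried a peak about as often as protein-coding genes in general, and over both ages fewer of them were without one. Of the 39 genes, 11 had a young peak, or 28.2% (95% Wilson interval 16.5 to 43.8), where 23.8% of all protein-coding genes had one. An aged peak lay in 9 of the 39, or 23.1% (12.6 to 38.3), where 20% of all protein-coding genes had one. Both intervals hold the share of all genes, so neither count stands apart from it. Together 19 genes had a peak and 20 had none, or 51.3% (36.2 to 66.1), where 66.7% of protein-coding genes had none. The upper bound lies just under that share. Long genes collect more peaks, and the export genes had a median length of 22.8 kb against 17.2 kb for all protein-coding genes. Per Mb of extended gene the export genes held 10.1 young peaks (exact Poisson 95% interval 5.23 to 17.7) and 7.59 aged peaks (3.47 to 14.4), against 9.15 and 6.51 for all protein-coding genes. Intervals throughout cover counting error only.

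Split by gene length, the interval for short export genes with an aged peak lay just above the share of short genes in general. The young interval holds the share of all such genes. Of the 19 export genes under 20 kb, 4 had an aged peak, or 21.1% (8.51 to 43.3), against 7.17% of all protein-coding genes of that length. These were Alyref, Nxf1, Srsf3 and Srsf7. The excess rests on these 4 genes, and the lower bound of 8.51 lies just above 7.17%. In the longer classes, and in young cells, every interval holds the share of all such genes. No correction was made for the number of classes compared. The export genes were also chosen with earlier results of these data known. The gene sets were not matched for expression, which the peaks do not measure, so its part was not tested. A young peak lay in 3 of the 19, or 15.8% (5.52 to 37.6), against 7.82%. Of the 17 genes of 20 to 60 kb, 7 had a young peak against 26.7% of all such genes, or 41.2% (21.6 to 64), and 4 had an aged peak, or 23.5% (9.56 to 47.3) against 21.1%. Only 3 export genes were longer than 60 kb. Nup98 had a young peak and Thoc2 an aged peak, Nup214 had none, and 65.4% and 54.9% of all genes of that length had a young and an aged peak.

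**Figure D1:**
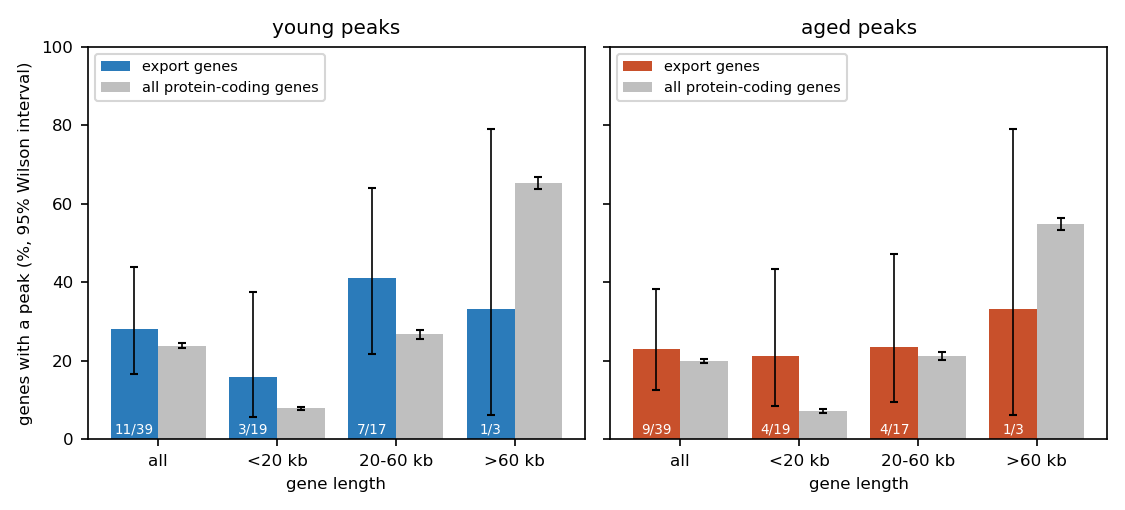
Share of genes with a young (left) or an aged peak (right), in percent with 95% Wilson intervals, for all lengths and for 3 classes of gene length; coloured bars are the 39 export genes with their counts, grey bars all protein-coding genes. Under 20 kb the coloured aged bar stands at 21.1% and the grey one at 7.17%; in every class the coloured intervals are wide.

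The peaks in export genes were small. Each is described by the authors' fold enrichment, which sets the summit against the local background, and by the reads at the summit, recovered here from the fold and its p-value. Summits held 7 to 14 reads in young (median 9) and 7 to 16 in aged cells (median 8), and the median of all peaks in protein-coding genes was 8 in both ages. Folds ran from 4 to 6.59 in young and from 4.5 to 8.92 in aged cells, with medians of 4.75 and 5.22 beside 4.8 and 4.73 for all protein-coding genes. A single peak in each age passed a −log10 q of at least 5, the young one at Thoc1 and the aged one at Srsf7, where 12.4% of young and 21.3% of aged peaks in protein-coding genes passed it. Such a peak lay in 4.51% of protein-coding genes in young and 5.39% in aged cells. At a fold of at least 5 the count was 4 genes in young (10.6% of protein-coding genes) and 6 in aged cells (9.33%), so the order of the ages turned. This cut is not equal between the ages, since the genome background was 0.823 and 0.825 in young and 0.689 and 0.69 in aged lists. The same fold thus asks for more reads in young cells, and the aged peaks of Thoc2 and Nup153 passed with 8 reads each. With each list cut to its strongest 8088 peaks the count was 8 genes in young and 9 in aged cells (18.1% and 20%). Which age had more carriers among the export genes therefore changed with the cut applied to the peaks. The weakest peaks over the plain genome background held 6 reads in the young and 5 in the aged lists, so a gene without a peak may still hold a few hybrid reads, and Poisson intervals on 7 and 14 reads (2.81 to 14.4 and 7.65 to 23.5) overlap.

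**Figure D2:**
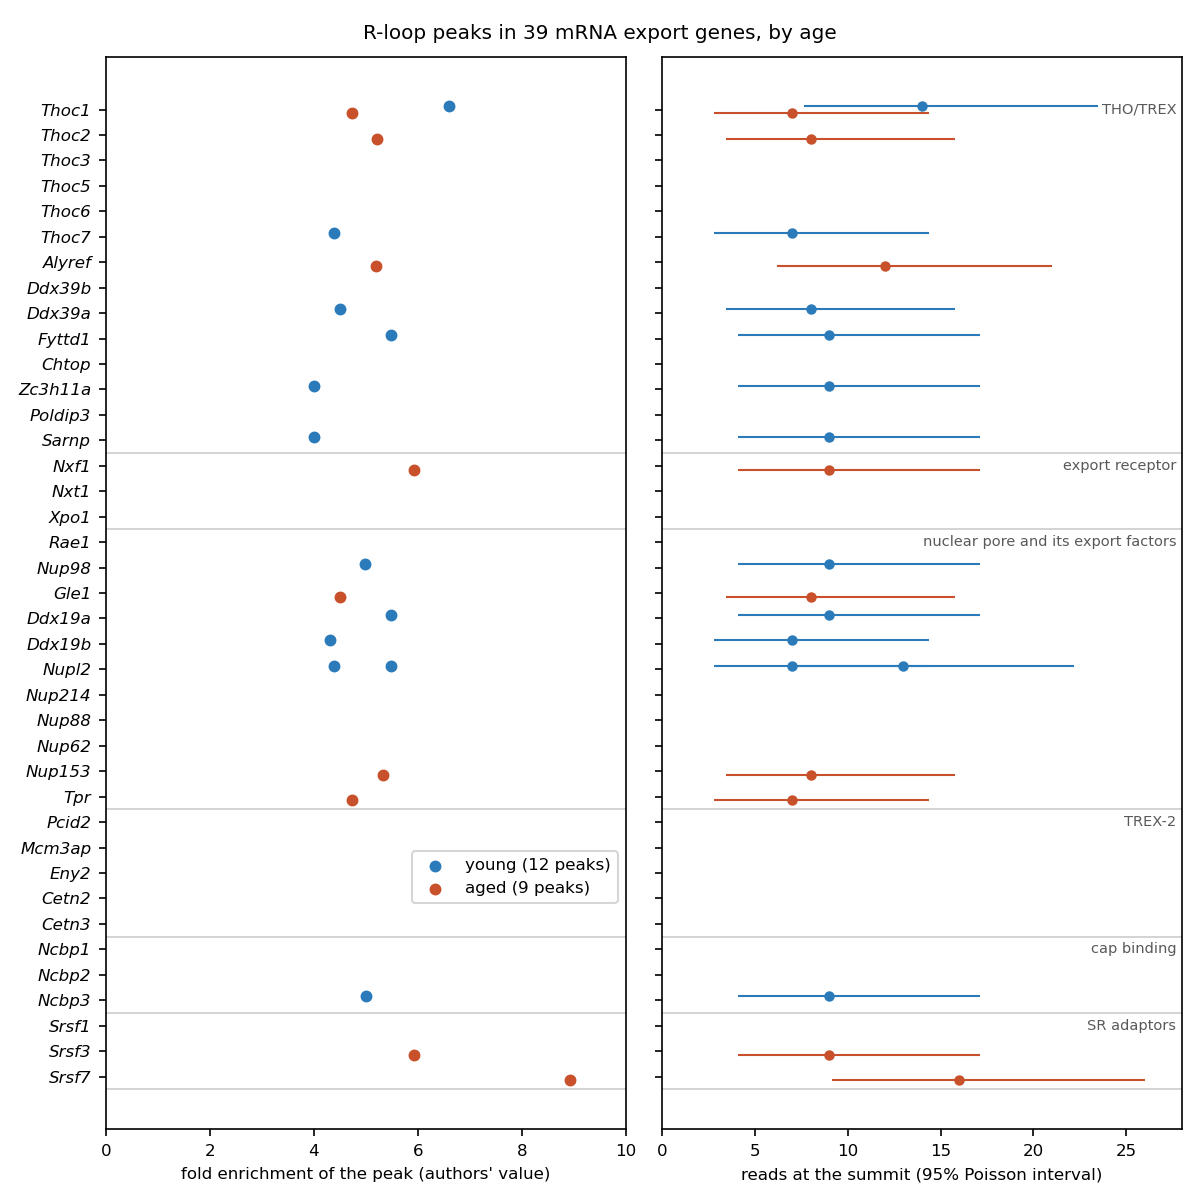
Fold enrichment (left) and reads at the summit with exact 95% Poisson intervals (right) of each peak in the 39 export genes, grouped by complex; blue is young, orange aged, and a gene without a point has no peak. The 5 genes of TREX-2 have no point, and Srsf7 has the highest fold, 8.92.

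A start peak was found in 4 export genes in aged and in 1 in young cells. Gene strand and starts were taken from the RefSeq promoter table, which lists 33 of the 39 genes. Thoc1, Thoc3, Ddx39a, Poldip3, Eny2 and Ncbp2 are not in it. Of these 33 genes, 4 had an aged summit within 1 kb of a listed start, or 12.1% (4.82 to 27.3), against 2.06% of 17492 protein-coding genes. They were Srsf7, Srsf3, Alyref and Nup153. A young summit lay that close to a start in Thoc7 alone, or 3.03% (0.537 to 15.3), against 2.44%. The aged share has an interval above that of all genes and the young share does not, but it rests on 4 peaks, of which 3 have 12 reads or fewer. The same peaks of Srsf7, Srsf3 and Alyref also made up most of the aged count of short genes above. The 2 results are therefore not separate, and the genes were chosen with earlier results of these data known. The intervals of the 2 ages overlap, and the difference between them was not tested. Counted over peaks in genes of known strand, 4 of 8 aged and 1 of 10 young peaks lay at a start (6.73% and 5.57% of all peaks in such protein-coding genes). The far end of a gene held 0 and 0 (5.11% and 3.16%), and the interior held 4 and 9 (88.2% and 91.3%).

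Srsf7, which encodes a small splicing protein that recruits NXF1, had the strongest peak of the group. It was an aged peak of fold 8.92 at chr17:80206989-80207228, on the reverse strand, with 16 reads (9.15 to 26) over a local background of 0.907. Its summit lay 167 bp downstream of the start, and its fold lay at or above that of 95.2% of aged peaks. The nearest young summit was 102 kb away, so the young lists held no counterpart.

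Srsf3, the close relative of Srsf7, had an aged peak of fold 5.92 and 9 reads (4.12 to 17.1) at chr17:29032764-29032976, on the forward strand and 159 bp downstream of the start. A second aged peak, of fold 4.14 and 6 reads, lay on the reverse strand 1.68 kb outside the gene and was not counted. The third gene of this kind, Srsf1, had no peak, with the nearest young summit 55 kb and the nearest aged one 69.6 kb from the gene. An aged peak thus lay in 2 of these 3 genes, or 66.7% (20.8 to 93.9), against 20% of all protein-coding genes. The lower bound lies just above that share and rests on 2 genes.

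Alyref, the adaptor that passes RNA from TREX to NXF1, had an aged peak of fold 5.2 and 12 reads (6.2 to 21) at chr11:120597988-120598290, on the reverse strand. The summit lay 223 bp downstream of the start, over a local background of 1.5. Nup153, a protein of the nuclear basket of the pore, had an aged peak of fold 5.33 and 8 reads (3.45 to 15.8) at chr13:46727782-46727978, on the reverse strand. Its summit lay 41 bp upstream of the start, and it was the sole summit of the 21 inside a promoter window of the table. The peak reached from 129 bp upstream to 67 bp downstream.

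All 4 aged start peaks lay in the list that matches the strand of the gene, the reverse list for Srsf7, Alyref and Nup153 and the forward list for Srsf3. A summit near a start and on its strand lay in 1.42% of all protein-coding genes of known strand in aged and in 1.48% in young cells. Which DNA strand the forward list stands for is not given in the sources used here, so a match means forward with plus-strand genes. Over all protein-coding genes, 67% of 379 aged and 60% of 435 young summits near a start lay on the matching strand. All 4 peaks had a neighbouring gene within 1 kb of the summit, on the opposite strand, so the list in which each peak lay matched the export gene and not the neighbour. The neighbours were the protein-coding genes Anapc11, 279 bp from the Alyref summit, and Gemin6, 366 bp from the Srsf7 summit, and the lncRNA genes Gm16196, 196 bp from the Srsf3 summit, and Gm46412, which holds the Nup153 summit. In Thoc7, a THO subunit gene, the young start peak lay on the reverse strand, which also matches the gene. It had a fold of 4.38 and 7 reads (2.81 to 14.4) at chr14:13960617-13960863, 595 bp downstream of a start, and the nearer bound of Atxn7, a gene of the opposite strand, lay 565 bp from its summit.

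**Figure D3:**
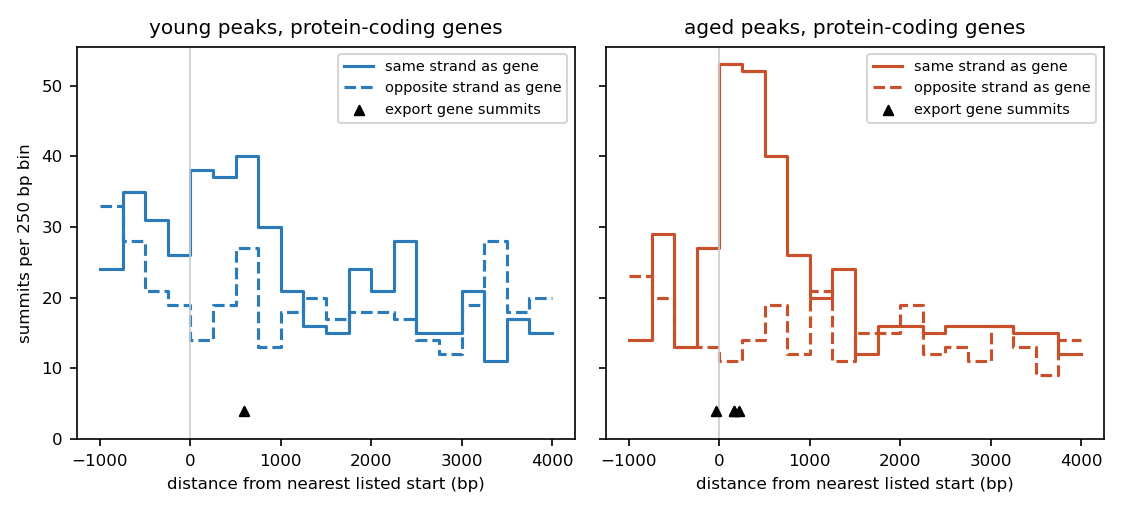
Summits of all protein-coding genes per 250 bp bin of distance from the nearest listed start, for young (left) and aged peaks (right); solid lines are peaks on the strand of the gene, dashed lines on the opposite strand, and triangles mark the summits in export genes. In the first 250 bp after the start there were 53 aged summits on the matching and 11 on the opposite strand, and 38 and 14 in young; 3 of the 4 aged export gene summits lie in that bin.

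The starts at which these 5 peaks lay are shown by the 250 bases upstream of each, because R-loops are known to form readily at starts rich in G and C, where a G-rich coding strand is displaced. They are RefSeq sequences of GRCm38.p6, written 5′ to 3′ on the strand of the gene, with every run of at least 3 G in capitals. Nup153 has its summit in the promoter window, and the other 4 were added after their peaks were seen.
Nup153, chr13:46727850-46728099, minus strand: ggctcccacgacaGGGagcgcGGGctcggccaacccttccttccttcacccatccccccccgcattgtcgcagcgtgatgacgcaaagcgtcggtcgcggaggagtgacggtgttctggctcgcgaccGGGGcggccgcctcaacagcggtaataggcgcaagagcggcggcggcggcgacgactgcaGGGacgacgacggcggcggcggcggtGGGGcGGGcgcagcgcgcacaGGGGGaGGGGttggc
Srsf7, chr17:80207306-80207555, minus strand: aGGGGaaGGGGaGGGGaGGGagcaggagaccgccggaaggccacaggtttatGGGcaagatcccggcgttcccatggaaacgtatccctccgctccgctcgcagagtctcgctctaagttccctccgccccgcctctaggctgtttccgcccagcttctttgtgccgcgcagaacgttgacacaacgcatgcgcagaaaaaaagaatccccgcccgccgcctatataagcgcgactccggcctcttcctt
Srsf3, chr17:29032410-29032659, plus strand: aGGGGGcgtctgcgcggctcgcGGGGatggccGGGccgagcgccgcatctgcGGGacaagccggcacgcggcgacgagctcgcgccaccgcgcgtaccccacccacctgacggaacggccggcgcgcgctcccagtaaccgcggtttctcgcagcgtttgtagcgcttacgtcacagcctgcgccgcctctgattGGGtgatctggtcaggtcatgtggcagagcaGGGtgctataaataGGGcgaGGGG
Alyref, chr11:120598366-120598615, minus strand: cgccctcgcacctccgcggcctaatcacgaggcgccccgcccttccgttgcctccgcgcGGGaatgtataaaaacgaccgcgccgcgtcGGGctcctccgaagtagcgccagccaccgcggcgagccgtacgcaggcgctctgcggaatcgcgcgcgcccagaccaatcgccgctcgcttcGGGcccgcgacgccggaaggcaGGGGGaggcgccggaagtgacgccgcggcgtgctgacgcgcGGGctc
Thoc7, chr14:13961314-13961563, minus strand: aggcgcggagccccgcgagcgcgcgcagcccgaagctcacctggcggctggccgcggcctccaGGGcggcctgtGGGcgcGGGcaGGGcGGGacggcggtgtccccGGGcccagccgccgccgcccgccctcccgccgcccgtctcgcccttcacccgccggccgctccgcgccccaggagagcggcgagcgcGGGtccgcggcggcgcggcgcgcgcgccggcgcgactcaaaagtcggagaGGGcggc

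The last 129 of the Nup153 bases lie under its peak, and the other 4 peaks begin downstream of the start. Thoc7 has 2 listed starts, and the stretch shown, upstream of the start nearer to the summit, lies wholly inside the bounds of the gene. The GC content of these stretches was 73.2% at Nup153, 61.6% at Srsf7, 69.6% at Srsf3, 74% at Alyref and 84% at Thoc7, against a median of 55.6% over 21263 upstream stretches of protein-coding genes. As much GC was in 7.38%, 32%, 12.8%, 6.35% and 0.315% of all stretches, in the same order. They held 37, 23, 35, 47 and 49 CG pairs, against a median of 10, and as many were in 2.76%, 17.3%, 3.79%, 0.325% and 0.183% of all stretches. Runs of GGG or more numbered 8 at Nup153, Srsf3 and Thoc7, shared or exceeded by 21.4% of all stretches, and 5 at Srsf7 and Alyref, reached by 47.8%. Runs of CCC or more, the same motif on the other strand, numbered 4, 8, 3, 5 and 11, with a median of 4 over all stretches for either motif. At least 1 run of GGG was in 94.8% of the stretches. G outnumbered C at Nup153 (102 against 81) and Srsf3 (93 against 81), and C outnumbered G at Srsf7 (70 G and 84 C), Alyref (86 and 99) and Thoc7 (103 and 107). All 5 stretches lay above the medians in GC content and CG pairs, Srsf7 least so, and had no common excess of G on the coding strand. At Srsf7, Srsf3, Alyref and Thoc7 the stretch lies wholly outside the peak. It therefore cannot show whether the sequence under the peak has an excess of G. CG-rich starts were frequent among export genes in any case, since 15 of the 33 had at least 20 CG pairs in a stretch (a limit chosen after the data were seen), against 25.9% of protein-coding genes of known strand. An aged start peak lay in 4 of these 15 and in 2.62% of all genes with such a start, and a young one in 1 of the 15 and in 3.33%. The limit of 20 lies below the 23 pairs of Srsf7, so it keeps all 5 genes with a start peak. These counts are thus a description and no test of CG content.

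Of the 14 genes of THO and TREX, 6 had a young peak, or 42.9% (21.4 to 67.4), and 3 an aged one, or 21.4% (7.57 to 47.6). Both intervals hold the shares of all protein-coding genes, 23.8% and 20%. Thoc1, which encodes a core THO subunit, was the sole export gene with a peak in both ages. In young cells it had a peak with a fold of 6.59 and 14 reads (7.65 to 23.5) at chr18:9960911-9961117, the highest values of the young peaks in export genes, and a −log10 q of 6.79. Its aged peak had a fold of 4.74 and 7 reads (2.81 to 14.4) at chr18:9989001-9989248. Both lay on the forward strand in the interior of the gene, but the summits were 28.2 kb apart, so they do not mark the same site. Thoc2, the largest THO subunit gene, had an aged peak of fold 5.22 and 8 reads on the matching strand, 63.9 kb from the start (chrX:41847950-41848137).

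The remaining young peaks of this group lay in genes of TREX cofactors. Fyttd1, which encodes an adaptor that works beside Alyref, had a fold of 5.48 and 9 reads (chr16:32904667-32904858). Ddx39a, a paralogue of the RNA-loading ATPase gene Ddx39b, had 4.5 and 8 reads (chr8:83726703-83726894). Its summit lay 105 bp from a bound of the gene and also inside the neighbour Adgre5, so the 2 genes cannot be told apart there. Zc3h11a, a TREX-associated zinc finger gene (chr1:133630847-133631058), and Sarnp, an RNA-binding TREX partner gene (chr10:128830209-128830500), each had a fold of 4 and 9 reads over a local background of 1.5. The Fyttd1 and Sarnp peaks lay on the strand opposite to the gene and the Zc3h11a peak on the matching one. Thoc3, Thoc5, Thoc6, Ddx39b, the adaptor gene Chtop and Poldip3 had no peak in either age.

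Of the 3 export receptor genes, Nxf1 alone carried a peak, in aged cells. That is 33.3% (6.15 to 79.2) against 20% of all protein-coding genes, and the interval holds that share. Nxf1 encodes the main receptor for bulk mRNA. Its aged peak had a fold of 5.92 and 9 reads (4.12 to 17.1) over the plain genome background, at chr19:8768985-8769171 and 1.83 kb from the end of the gene. It lay on the strand opposite to the gene. A further aged peak of fold 4.74 and 7 reads had its summit 2.62 kb outside the gene and was not counted. The nearest young summit to the gene was 81.9 kb away. Nxt1, the partner subunit, and Xpo1, the receptor for a subset of transcripts, had no peak.

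Of the 11 genes of the nuclear pore and its export factors, 4 had a young peak, or 36.4% (15.2 to 64.6), and 3 an aged one, or 27.3% (9.75 to 56.6). In both ages a peak was found in 0 of the 11 (0 to 25.9). These intervals hold the shares of all protein-coding genes, 23.8%, 20% and 10.6%. The young peaks lay in Nup98, a mobile pore protein gene that binds Rae1, and in genes of the step that releases RNA at the cytoplasmic face. Nupl2, which encodes the pore partner of GLE1, held 2 young peaks, of fold 5.49 with 13 reads (6.92 to 22.2) at chr5:24171498-24171691 and of 4.39 with 7 reads at chr5:24180190-24180396. Both lay on the strand of the gene, 8.57 kb apart. The Nup98 peak had a fold of 4.99 and 9 reads on the opposite strand, 20.2 kb from a start (chr7:102189684-102189874). Ddx19a and Ddx19b are adjacent paralogues that encode ATPases activated by GLE1. They had young folds of 5.48 with 9 reads (chr8:110989921-110990156) and 4.31 with 7 reads (chr8:111018052-111018258). Their summits lay 15027 and 15026 bp from the lower bounds of the 2 genes, and 7805 and 9558 bp from the nearest listed starts. Both were on the reverse strand. How reads that match both copies were counted is not given in the sources used here, so both peaks are uncertain, and the part of such reads was not tested. The Ddx19a summit also lies in the lncRNA gene Gm51551. Counting the pair once leaves 10 genes with a young peak.

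The aged peaks of the pore group lay in Nup153, described above, in Tpr, another gene of the nuclear basket, and in Gle1, the activator of the release ATPases. Tpr had a fold of 4.74 and 7 reads on the strand of the gene, 38.1 kb from the start (chr1:150430890-150431076). Gle1 had 4.5 and 8 reads on the opposite strand, 1.45 kb from the end of the gene (chr2:29957824-29958005). Nup50, a basket gene outside the 39 and named after its values were seen, had no peak in either age. Of 22 other pore genes, 14 had none. Rae1, Nup62, a channel gene, and Nup214 and Nup88, of the cytoplasmic filaments, had none.

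The 5 genes of TREX-2, which ties transcribed genes to the pore, had no peak in either age, which allows a share of up to 43.4% by the Wilson interval. Since 66.7% of all protein-coding genes had no peak, 0 of 5 is near the background. They were the scaffold gene Mcm3ap, Pcid2, Eny2 and the centrin genes Cetn2 and Cetn3. Of the 3 cap-binding genes, Ncbp3, an alternative partner of the large subunit, had a young peak of 9 reads. Its fold was 5 after rounding and just missed the cut of 5. The peak lay on the strand of the gene, 19.1 kb from the start (chr11:73066951-73067290). Ncbp1 and Ncbp2, which encode the canonical complex, had none. The young share of 1 in 3 cap-binding genes, 33.3% (6.15 to 79.2), has an interval that holds the 23.8% of all protein-coding genes. The 20 genes without a peak had their closest summit of either age at a median of 30.3 kb, from 3.08 kb at Poldip3 to 80.2 kb at Ncbp1, and 4 of them had one within 10 kb.

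**Figure D4:**
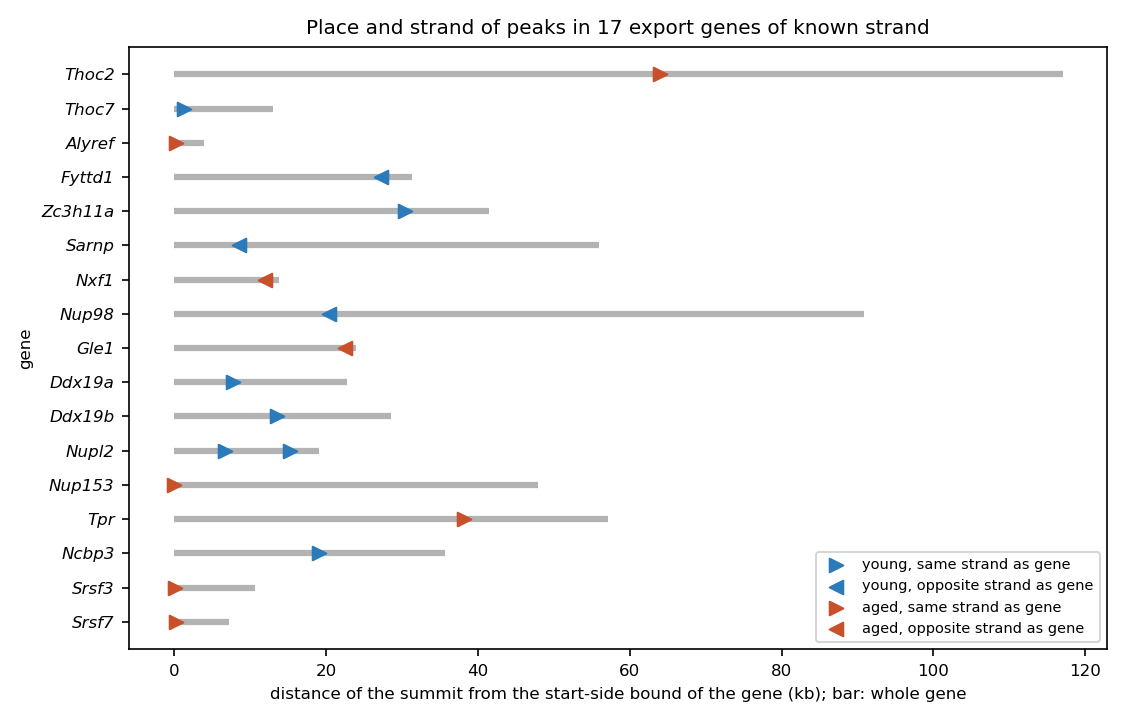
Place of 18 peaks in the 17 export genes of known strand, in kb from the start-side bound of the gene; grey bars are the genes to scale, triangles pointing right are peaks on the strand of the gene and triangles pointing left on the opposite strand, blue young and orange aged. Aged triangles sit at the start of Alyref, Nup153, Srsf3 and Srsf7, and most young ones lie inside the gene.

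No site in an export gene was found in both ages. Of the 12 young and 9 aged peaks, 0 met a peak from the opposite age, whichever strand was asked. Among all peaks in protein-coding genes, 6.95% of young and 9.8% of aged peaks met one on the same strand, so 0 of so few peaks is near that background. The nearest summit of the other age lay 10.7 kb (at Sarnp) to 163 kb (at Nup98) away, and 19.1% of young and 26.4% of aged peaks in protein-coding genes had one within 10 kb. Peaks of both ages lay in 1 of 39 export genes against 10.6% of protein-coding genes, a share set mostly by long genes: it was 1.43% under 20 kb, 7.73% at 20 to 60 kb and 40.6% over 60 kb. In turn 10 export genes, or 25.6% (14.6 to 41.1), had a young peak only and 8, or 20.5% (10.8 to 35.5), an aged peak only, against 13.3% and 9.43%. Both lower bounds lie just above the shares of all genes. At 20 to 60 kb, 6 of 17 had a young peak only and 3 of 17 an aged one only, against 19% and 13.4%. Under 20 kb these were 3 and 4 of 19, against 6.39% and 5.75%. A peak in 1 age only does not show that the ages differ, since the lists give no value per library and few peaks of either age met one of the other.

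None of the 21 peaks met a peak of the opposite strand in the same age, where 1.4% of young and 8.34% of aged peaks in protein-coding genes did. In genes of known strand, 7 of 10 young and 6 of 8 aged peaks lay on the strand of the gene, or 70% (39.7 to 89.2) and 75% (40.9 to 92.9), against 47.1% and 54% of all peaks in protein-coding genes. Outside the starts the counts were 6 of 9 in young and 2 of 4 in aged, against 46.6% and 52.5%. The intervals for the whole counts are wide and hold the shares of all genes.

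A further 54 genes of the same pathway, other pore proteins, the exon junction complex, other adaptors and the Ran cycle, carried peaks as often as genes in general. A young peak lay in 12 of them, or 22.2% (13.2 to 34.9), and an aged one in 11, or 20.4% (11.8 to 32.9). The strongest aged peak lay at Pabpn1, the nuclear poly(A)-binding protein gene, with a fold of 9.47 and 15 reads, 451 bp downstream of the start and on its strand (chr14:54894156-54894699). Pom121, a membrane protein gene of the pore, had 7 with 13 reads, and Acin1 and Pnn, of the exon junction complex, had 5.92 with 9 reads each. The strongest young peaks lay at the zinc finger gene Zc3h3 (9.88, 17 reads), at Ipmk, an inositol kinase gene of selective export (6.57, 11 reads), at the pore gene Seh1l (6.03, 10 reads) and at Nup210 (5.49, 9 reads), the last tied with Pnn and the Ran exchange factor gene Rcc1. Of 12 aged peaks 11 lay on the strand of the gene, and of 13 young ones of known strand 8 did, against 54% and 47.1% of all peaks in protein-coding genes. A summit within 1 kb of a start was found for 2 aged peaks, at Pabpn1 and Rbm15, and for 1 young peak, at Ranbp1, against 6.73% and 5.57% of all such peaks. The last 2 genes were named after their values were seen.

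The labelled cell type cannot be checked on expression, which R-loop peaks do not measure. Of 9 stem cell marker genes 4 had a young peak, or 44.4% (18.9 to 73.3), and 5 an aged one, or 55.6% (26.7 to 81.1). Of 10 marker genes of other blood cells 0 (0 to 27.8) and 1, or 10% (1.79 to 40.4), did, the last at Mpo. The shares of all protein-coding genes were 23.8% and 20%. The lists were not matched for gene length, with which these shares rise, so the counts give no check of the cell type.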

How the data were processed

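The submitters' processing notes name MACS3 3.0.0b1, Bowtie2 2.4.4, deepTools 3.5.1 and Trim Galore, with build GRCm38. Not given in the sources used here are their settings, the handling of duplicate or multiply mapping reads and the way libraries were pooled. The deposited lists, 1 for each age and strand, give per peak the ratio of signal over local background (the fold) and, from the authors' caller, its p-value and q-value as −log10. These values are the authors' and serve to describe and filter peaks.

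Reads at a summit were recovered from fold and −log10 p by the form MACS uses, the fold being reads plus 1 over background plus 1 and p the upper Poisson tail. The recovered −log10 p lay within 0.1% for 100% of peaks in each list. This was checked on simulated data. Depth is not given, and the recovered genome background, 0.823 and 0.825 in the young and 0.689 and 0.69 in the aged lists, stands in for it. Genes and starts came from RefSeq tables of GRCm38.p6. All 39 members matched by symbol. Of the 54 further pathway genes, 1 matched by a synonym. A starts table that lists 33 members may miss alternative starts. Peaks overlapping by at least 1 bp count as shared. Exons, introns and peak sequences were not used here.

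Members and lists were chosen with earlier results of these data known. Every member is named, with its strongest peak per age. From the further list up to 4 genes per age with the highest fold are named, with exceptions said in the text. Alternatives cut the lists, changed the gene and end windows, the placing by summit, merging and the overlap that counts as shared. The software was matplotlib 3.10.9, scipy 1.17.1, pandas 2.3.3, numpy 2.4.6 and Python 3.11.15.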

Additional observations from a re-analysis of the deposited data

How the results depend on the processing

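Each age has 1 list per strand and none per library, so leaving out a replicate was not possible. No paired analysis was possible because the lists hold no value per library. Of 244 recomputed values 30 moved by more than 1.5 times. The 244 include 79 folds, none of which moved. A fold is the authors' value for a peak, and the settings that cut or merge the lists were not applied to it. It could move only where a changed window, placing or ranking picked a different peak, so the unchanged folds say little about robustness. At a −log10 q of at least 5 the genes with a young peak fell from 11 to 1 and those with an aged peak from 9 to 1, with 1 peak in each age and 0 genes in both. At a fold of at least 5 there were 4 genes and 4 peaks in young, 6 genes in aged and 0 in both. The order of the ages turned, while all protein-coding genes kept more young than aged carriers (10.6% and 9.33%). Over the genome background this fold asks for more reads in the young than in the aged lists. Cutting each list to 8088 peaks left 8 export genes with a young and 9 with an aged peak, against 18.1% and 20% of protein-coding genes. Gene bounds extended by 3 kb gave 2 genes with a peak in both ages, Sarnp being added. The start windows were varied after the data were seen. The aged start genes stayed at 4 within 500 bp, fell to 3 with no gene extension and to 1 at a −log10 q of at least 5. The young one was lost within 500 bp, at that q and at a fold of at least 5. The share of all protein-coding genes with a start peak was not computed under these settings. These counts therefore do not show whether the higher aged share at starts holds. Summits of as few as 7 reads limit all of these counts.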
